A study of Mus musculus with 40 samples.

Results

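The genes described here encode the enzymes that run the tricarboxylic acid (TCA) cycle onward from isocitrate in the mitochondrial matrix. They were taken by symbol as 10 nuclear genes: Idh3a, Idh3b, Idh3g, Ogdh, Dlst, Suclg1, Sucla2, Sdha, Fh1 and Mdh2. All 10 were found among 54331 gene IDs, after the version was stripped from each Ensembl ID, and all 10 passed the filter on low values (10 or more in 4 or more libraries), as 21367 genes did. The rule for the genes used no measured value, but it was set with earlier results of these data known. Cerebella of male C57BL6 mice gave the total RNA, which was freed of ribosomal RNA and sequenced in 40 libraries. INDY libraries numbered 6 on ketogenic diet (KD) and 6 on standard diet (SD), DKO libraries 5 on KD and 4 on SD, CSB libraries 5 on KD and 6 on SD, and WT libraries 4 on KD and 4 on SD. INDY mice lack the plasma membrane citrate transporter Slc13a5, CSB is the DNA repair and transcription factor encoded by Ercc6, and DKO is the name the labels give to the combined genotype. Age, the structure of the alleles and the length and composition of the diets are not given in the sources used here, and the labels do not say that each library came from its own animal, so the p-values measure the spread between libraries, which may be technical.

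The cycle oxidises acetyl groups to carbon dioxide and passes the electrons to the respiratory chain. Past isocitrate, isocitrate dehydrogenase 3 (IDH3) and the oxoglutarate dehydrogenase complex each release carbon dioxide and reduce NAD, succinyl-CoA ligase forms a nucleoside triphosphate, succinate dehydrogenase feeds electrons to ubiquinone, and fumarase and malate dehydrogenase regenerate oxaloacetate. Neurons depend on the cycle for ATP and also draw oxoglutarate from it to make glutamate. Ketone bodies, whose supply rises on a ketogenic diet, enter as acetyl-CoA, and citrate taken up through Slc13a5 joins the same pool of carbon.

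Values are the authors' normalised estimated counts, and sequencing depth is unknown because the values are not raw counts. Slc13a5 was listed at 0 in 19 of 21 INDY and DKO libraries, and its log2 difference averaged over diets was -6.84 in INDY and DKO against WT and CSB (limma, Benjamini-Hochberg adjusted p = 7.908e-34). Ercc6 was lower by 0.55 on the log2 scale in CSB and DKO against WT and INDY (limma adjusted p = 3.275e-06). In 2 libraries the Ercc6 value went against the label. The library labelled DKO KD 23 had 876.2, against 382.5 to 694.8 in the other CSB and DKO libraries. The library labelled WT KD 25 had 632.7, against 717.8 to 1069.5 in the other WT and INDY libraries. For several results that rest on them, the value without them is also given. Markers of the forebrain (16 genes) stood more than 1 log2 unit above the median library in 12 libraries, among them 3 of the 4 WT KD libraries and none of the WT SD libraries. All 10 granule cell and all 8 Purkinje cell markers reached at least 10 in every WT SD library. DKO SD 1 stood apart, with the lowest mean log2 levels of granule cell (7.59) and Purkinje cell (9.21) markers of all libraries. The next lowest library in both, CSB SD 16, had 10.42 and 11.43. The forebrain level of DKO SD 1 was the highest of all, 10.22. In whole tissue, fewer cells of a type and less RNA per cell cannot be told apart.

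All 10 transcripts were measured in every library, and their levels per length spanned 617.1 to 3319 normalised counts per kilobase. Per kilobase of the principal transcript, Sdha was the highest, at 3319 normalised counts averaged over the 40 libraries. Sdha is the flavoprotein subunit of succinate dehydrogenase, which is also complex II of the respiratory chain. Next came the regulatory IDH3 subunit Idh3b at 2833, with the other regulatory subunit Idh3g at 1958 and the catalytic subunit Idh3a at 1448 normalised counts per kilobase. The mitochondrial malate dehydrogenase Mdh2 stood at 2039, and Ogdh, the decarboxylating subunit of the oxoglutarate dehydrogenase complex, at 1406. Sucla2, the ATP-forming beta subunit of succinyl-CoA ligase, stood at 1934, above its alpha partner Suclg1 at 1004 normalised counts per kilobase. Dlst, the succinyl-transferring subunit of the oxoglutarate dehydrogenase complex, stood at 960.0, and fumarase, encoded by Fh1, was the lowest at 617.1. On this scale the subunits of 1 enzyme differed in level, with Idh3b above Idh3a and Sucla2 above Suclg1.

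Each transcript varied little over the 40 libraries. The coefficient of variation ran between 6.19% for Dlst and 12.4% for Suclg1, and the highest library was 1.33 times (Dlst) to 1.82 times (Suclg1) the lowest. INDY KD 20 was the lowest of all libraries for 6 genes, Idh3a, Idh3b, Suclg1, Sucla2, Sdha and Mdh2. CSB KD 13 was the highest for 4 genes, Idh3g, Suclg1, Fh1 and Mdh2. Group means spanned 0.12 log2 units for Sdha to 0.35 for Mdh2. WT SD had the lowest group mean for 6 genes and INDY KD for the other 4, whereas DKO KD had the highest for 6 genes.

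**Figure D1:**
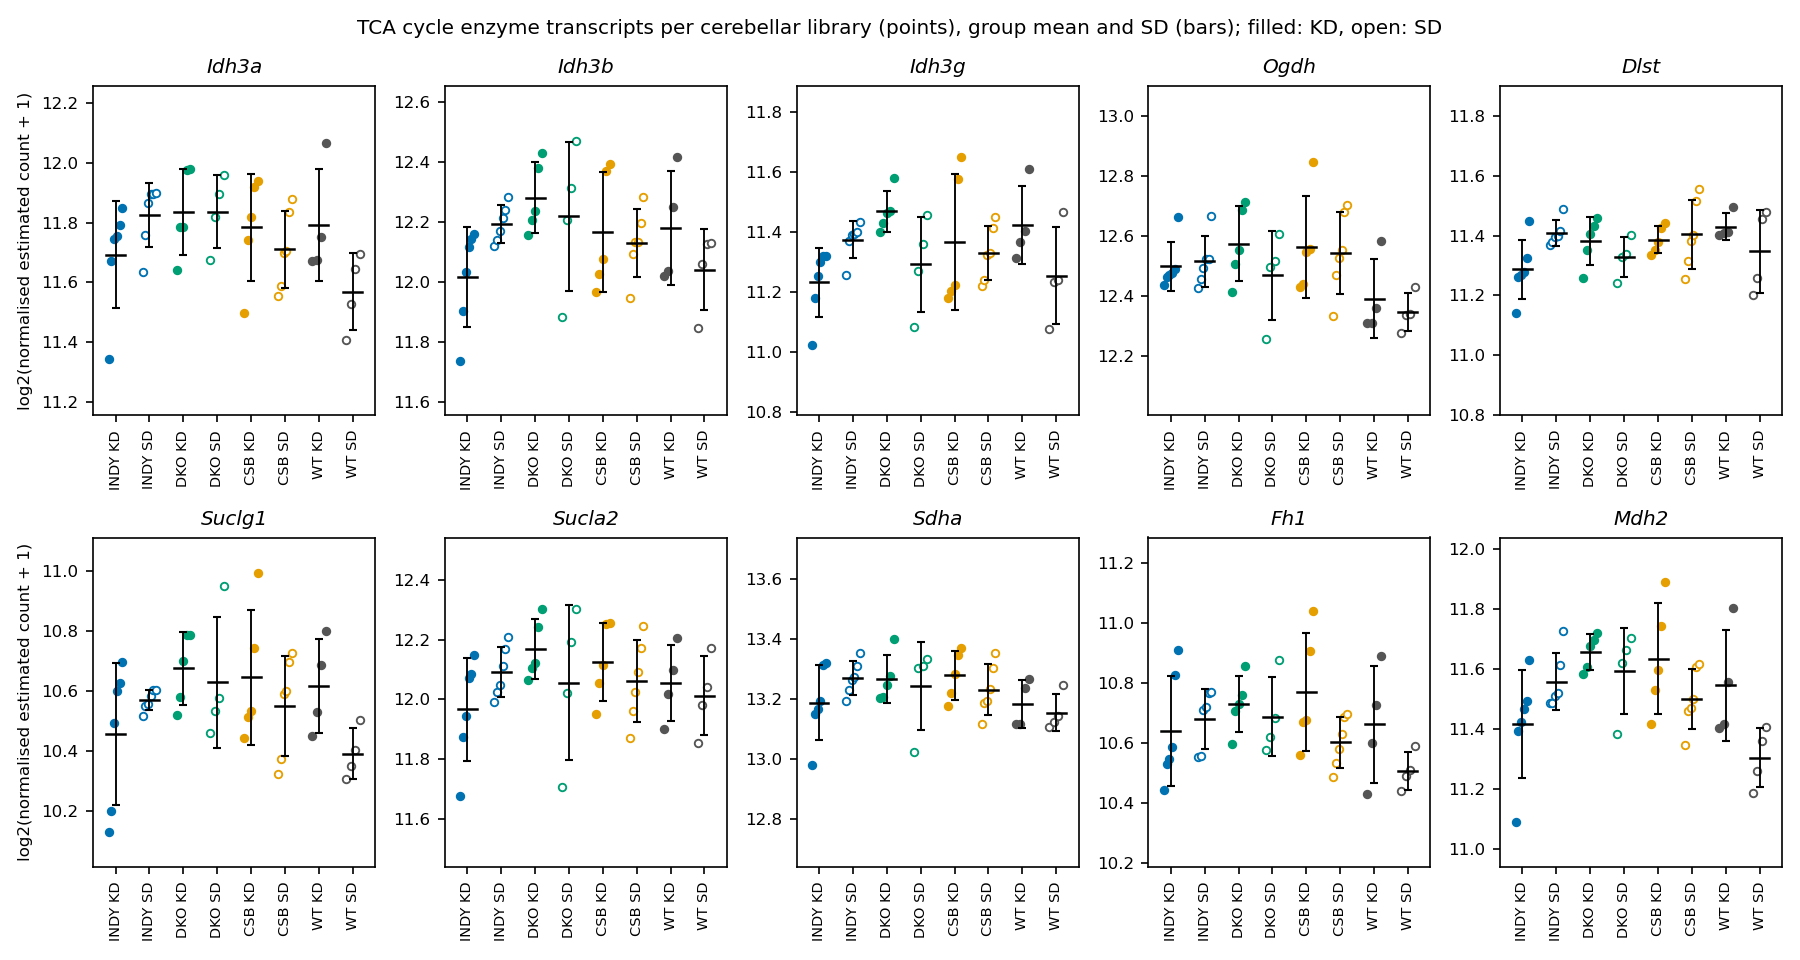
Log2(normalised estimated count + 1) of each of the 10 genes (y axis) in the 8 groups (x axis), with 1 point per library, filled for KD and open for SD, and black bars for the group mean and SD. Every panel spans the same range of log2 units, and the groups overlap for nearly all genes, with WT SD low for Idh3a, Suclg1, Fh1 and Mdh2.

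The libraries at the ends of the mean log2 level of the 10 genes were also apart in other measures. The level was lowest in INDY KD 20 at 11.45 and in WT SD 41 at 11.49, and highest in CSB KD 13 at 11.93. INDY KD 20 and WT SD 41 also had the lowest mean log2 levels of 7 oligodendrocyte markers, 12.56 and 12.61, against 13.92 in CSB KD 13. The share of all values that came from mitochondrially encoded genes was 6.53% in INDY KD 20, 8.50% in WT SD 41 and 14.2% in CSB KD 13, where it was the highest of all libraries. Other libraries went against this: WT SD 42 had the lowest mitochondrial share of all, 5.97%, at a mean level of 11.59, and CSB SD 16 had the highest oligodendrocyte level, 14.23, at a mean level of 11.77. By group, the oligodendrocyte level averaged 13.24 ± 0.51 in INDY KD, 13.47 ± 0.20 in INDY SD, 13.37 ± 0.43 in WT KD and 13.14 ± 0.36 in WT SD (SD over 6, 6, 4 and 4 libraries), with all 7 markers at 10 or more in every WT SD library. The part of cell makeup in the levels of the 10 genes was not tested.

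Within groups the 10 transcripts varied together across libraries. After each group's mean was subtracted, the 45 pairs had a median Pearson r of 0.51 over 40 libraries, and 44 of the 45 were above 0. The closest pair was Idh3b and Sucla2 at r = 0.92, followed by Sdha with each of these genes at 0.82, and the only pair below 0 was Idh3g and Ogdh at -0.13. All genes of a pair come from the same libraries, whose forebrain and choroid plexus marker levels differed, so these coefficients are descriptions and carry no p-value. Of all genes tested, the median r with the mean profile of the 10 was -0.02. That is an r with a mean profile, not between genes of a pair. Pairs of other genes were not computed, so it gives no background for the pair values.

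Each of the 10 was also set against the mean profile of the other 9. Idh3b followed it most closely, with r = 0.94, and 1 gene of 21358 had a higher r than Idh3b. Sucla2 reached 0.88, with 24 genes above it, and Sdha 0.87, with 39 above it. Mdh2 and Suclg1 each had r = 0.72, Idh3a 0.65 and Fh1 0.60, while Idh3g (0.49), Dlst (0.41) and Ogdh (0.40) followed the others least. Many more genes had a higher r than these: 611 for Mdh2, 621 for Suclg1, 1213 for Idh3a and 1657 for Fh1. For Idh3g it was 2957 genes (13.8%), for Dlst 3815 (17.9%) and for Ogdh 3909 (18.3%). Ogdh and Dlst, both of the oxoglutarate dehydrogenase complex, thus stood at the loose end, and their r with each other was 0.30. Outside the 10, the profile was most closely matched by the proteasome subunit Psmd12 (0.95), followed by the thioredoxin-related membrane protein Tmx2 (0.94), the ADP/ATP carrier Slc25a4 (0.93) and Cox5a of complex IV (0.93). Next came a further proteasome subunit, Psmc5 (0.93), Uqcrc1 of complex III (0.93) and, lower in the order, the ATP synthase gene Atp5g3 (0.92). The remaining genes of the 10 closest were the chaperone adaptor Stip1, Ttc1 and the RNA ligase Rtcb, with r between 0.92 and 0.93.

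**Figure D2:**
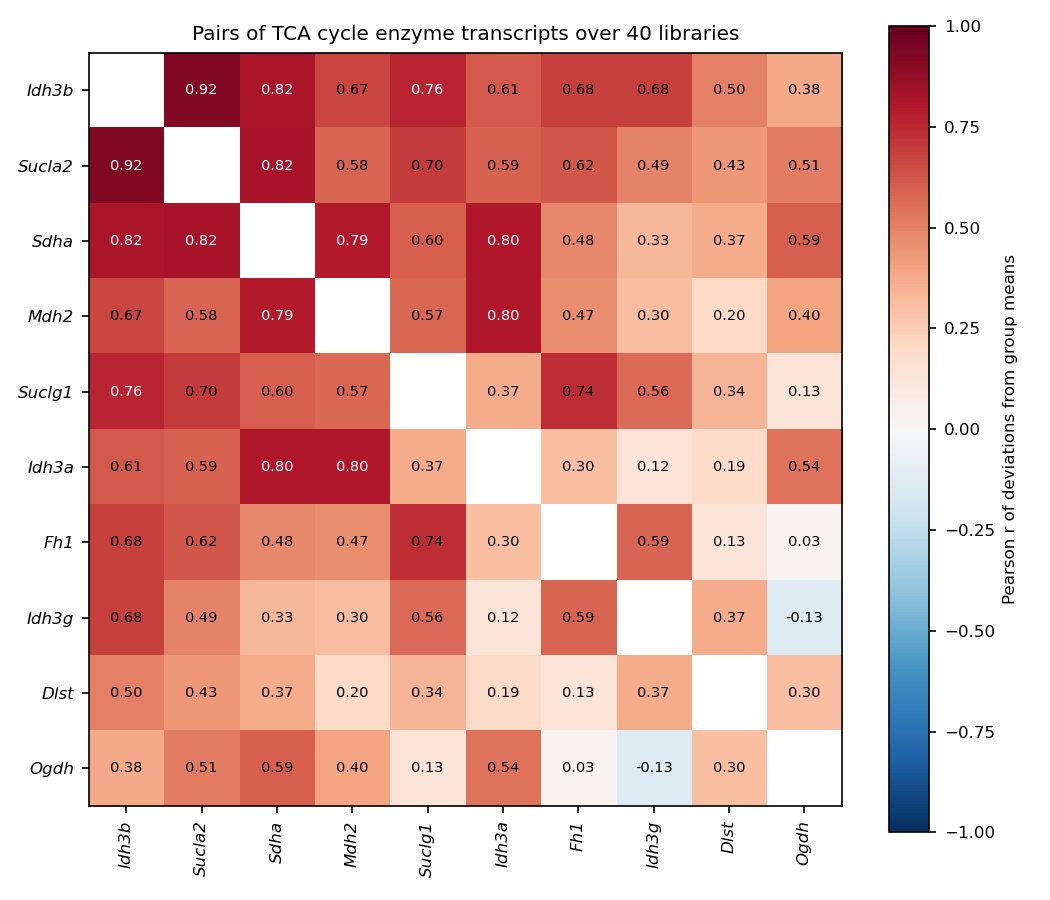
Pearson r of each pair of the 10 genes over 40 libraries, computed on deviations of log2(value + 1) from group means, with genes on both axes ordered by their r with the mean profile of the other 9. Idh3b, Sucla2 and Sdha form the darkest block at 0.82 to 0.92, and Ogdh, Dlst and Idh3g have the palest cells, down to -0.13.

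The sequences before a RefSeq transcription start are shown for the 3 genes that followed the others most closely, Sdha, Sucla2 and Idh3b. RefSeq windows on GRCm38.p6 of 250 bases before the start were found for 9 of the 10 genes, in 14 windows. Motifs were searched on both strands: the NRF1-type GCGCANGCG, the GC box GGGGCGGGG, the ETS-type CCGGAAGT and the ERR-type TNAAGGTCA. NRF1 and ERR are known as factors of nuclear genes for mitochondrial proteins. Capitals mark matches, each line reads 5′ to 3′ on the gene's strand, and the positions are chr13:74350241-74350490 (minus strand) for Sdha, chr14:73552536-73552785 (plus strand) for Sucla2 and chr2:130284452-130284701 (minus strand) for Idh3b.
Sdha: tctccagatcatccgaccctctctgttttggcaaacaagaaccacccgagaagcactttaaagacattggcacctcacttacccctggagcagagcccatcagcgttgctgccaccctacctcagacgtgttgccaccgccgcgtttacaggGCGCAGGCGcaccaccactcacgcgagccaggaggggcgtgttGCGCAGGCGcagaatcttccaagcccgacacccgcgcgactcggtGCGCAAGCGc
Sucla2: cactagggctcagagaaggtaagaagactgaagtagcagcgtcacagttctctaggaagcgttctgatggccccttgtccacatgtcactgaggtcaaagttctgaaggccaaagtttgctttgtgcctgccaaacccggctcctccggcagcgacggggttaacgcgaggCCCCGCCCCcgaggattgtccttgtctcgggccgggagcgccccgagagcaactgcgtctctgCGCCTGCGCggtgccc
Idh3b: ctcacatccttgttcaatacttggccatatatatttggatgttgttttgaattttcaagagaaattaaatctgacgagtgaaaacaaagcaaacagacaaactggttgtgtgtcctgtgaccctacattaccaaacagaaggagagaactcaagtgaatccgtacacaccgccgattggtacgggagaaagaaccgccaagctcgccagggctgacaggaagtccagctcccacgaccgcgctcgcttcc
In GENCODE M21, Sucla2 spans chr14:73525319-73596142, so its RefSeq window lies inside the annotated gene. Sdha spans chr13:74322254-74350280 and Idh3b chr2:130279309-130284547, so the 3′ ends of their windows also lie inside the annotated genes. The last NRF1-type match of Sdha falls in that part. The NRF1-type motif matched 3 times in the window of Sdha and 1 time in that of Sucla2, against 5.16% of all 32851 RefSeq windows of that length that held it. It also matched in 2 overlapping windows of Ogdh, which lie inside the gene as GENCODE places it, and in none of the other 6 genes, Idh3b included. Sucla2, Mdh2 and Ogdh each had a window with the GC box, which was present in 10.4% of all windows. The ETS-type motif (2.88% of all windows) and the ERR-type motif (1.14%) matched in none of the 14 windows. No 2 matches in the windows shown overlapped, and a match is a description of letters, not of binding.

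Diet was compared within each genotype. None of the 10 genes was called at a Benjamini-Hochberg adjusted p under 0.05 (limma) in INDY, CSB or WT, where 0% of all genes tested were called, nor in DKO, where 0.00468% (1 gene) were. Averaged over the 4 genotypes, KD against SD also called 0 of the 10 and 0% of all genes, and 0 of the 10 had an unadjusted p under 0.05, against 3.16% of all genes. The 95% intervals of the 10 averaged log2 differences all lay within -0.09 to 0.17, with a median difference of 0.04, against 0.01 over all genes tested. Without WT KD 25 that median of the 10 was 0.021. The smallest p in that average was that of Fh1 (0.08 ± 0.05, SE) and then Mdh2 (0.07 ± 0.05, SE), each at a limma adjusted p of 0.9997. The side on which the 10 estimates fell differed between genotypes: 0 of the 10 log2 differences were above 0 in INDY, 9 in DKO, 9 in CSB and all 10 in WT. Of all genes tested, 49.9% were above 0 in INDY, 52.6% in DKO, 49.7% in CSB and 48.6% in WT. The 10 genes varied together within groups (median pair r = 0.51), so they are not separate observations, and 1 library can shift most of them. The same limit holds for the counts of the 10 genes in the other comparisons. Median log2 differences of the 10 were -0.12 in INDY, 0.06 in DKO, 0.06 in CSB and 0.15 in WT, and the medians over all genes tested lay between -0.01 and 0.01. The median in DKO ran between 0.00 (DKO SD 1 left out) and 0.11 (DKO SD 36 left out), and it was -0.051 without the libraries of high forebrain level. The median in WT was 0.069 without WT KD 28 and 0.09 without WT SD 41, that in INDY was -0.065 without INDY KD 20, and that in CSB ran between 0.03 (without CSB KD 13) and 0.10 (without CSB KD 18).

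In WT, 2 of the 10 genes had an unadjusted p under 0.05 in the direction of higher values on KD, against 7.68% of all genes tested. Mdh2, the last enzyme of the cycle, was at 2707, 2734, 3575 and 3012 normalised counts in the 4 WT KD libraries, against 2630.5, 2714, 2450.2 and 2332 in the 4 WT SD libraries. The groups overlapped, because WT KD 7 lay below WT SD 40, and the highest value came from the library labelled WT KD 25. The log2 difference was 0.24 ± 0.10 (SE), with a limma adjusted p of 0.31, and without WT KD 25 it was 0.16 with an adjusted p of 0.709. Over all alternative settings it ran between 0.0917 and 0.2889. Idh3a had 3272, 3262, 4289.7 and 3449 normalised counts in WT KD libraries, against 3315, 3201, 2717 and 2954 in WT SD libraries. Here too WT KD 25 was the highest and the groups overlapped. The log2 difference of Idh3a was 0.22 ± 0.11 (SE, limma adjusted p = 0.364), and 0.13 without WT KD 25. Sdha was the member with the smallest difference in WT, 0.03 on the log2 scale. No gene of the 10 had groups that did not overlap, whereas 5.13% of all genes were higher in every WT KD library than in any WT SD library and 4.68% were lower. Forebrain marker levels ran between 5.29 and 7.71 in WT KD libraries and between 5.41 and 5.60 in WT SD libraries, and choroid plexus marker levels between 4.07 and 8.25 in WT KD and between 7.50 and 9.19 in WT SD. The part of these tissues in the WT difference was not tested.

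In INDY, 1 of the 10 genes had an unadjusted p under 0.05, in the direction of lower values on KD, against 2.05% of all genes tested. Dlst ranged between 2260.0 and 2793 normalised counts in the 6 INDY KD libraries, with a median of 2476, and between 2646 and 2874 in the 6 INDY SD libraries, with a median of 2695.5. In 5 of the 6 INDY KD libraries Dlst was below every INDY SD library, and INDY KD 15 overlapped them. Its log2 difference was -0.12 ± 0.06 (SE, limma adjusted p = 0.981). Idh3b differed by -0.18 ± 0.09 (SE, limma adjusted p = 0.981), the largest of the 10 in size in INDY, and Ogdh by -0.02, the smallest. INDY KD 20 and INDY KD 21 held the lowest values of several genes: Suclg1 was at 1119 and 1173 in these libraries, against 1440.4 to 1659 in the other INDY KD libraries and 1463.5 to 1554 in INDY SD libraries.

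In CSB and DKO, 0 of the 10 genes had an unadjusted p under 0.05, against 3.43% and 8.11% of all genes tested. Fh1 had the largest difference in CSB. It was at 2105.5, 1629, 1917, 1506 and 1635 normalised counts in the 5 CSB KD libraries, and between 1433 and 1659.5 with a median of 1557 in the 6 CSB SD libraries. CSB KD 13 and CSB KD 19 lay above all CSB SD libraries and the other 3 within their range, with a log2 difference of 0.17 ± 0.09 (SE, limma adjusted p = 0.984). Mdh2 followed, with 0.14 ± 0.09 (SE, limma adjusted p = 0.984). In DKO the largest difference was that of Idh3g, at 3062, 2838, 2698, 2825 and 2757 normalised counts in DKO KD libraries, against 2170.1, 2628, 2465 and 2810.5 in DKO SD libraries. Only DKO SD 36 reached the DKO KD range. The log2 difference was 0.18 ± 0.09 (SE, limma adjusted p = 0.63), and 0.19 without DKO KD 23. Ogdh differed by 0.11 ± 0.08 (SE, limma adjusted p = 0.766). DKO SD 1, which was the lowest DKO SD library for Idh3g, had the highest forebrain marker level of all libraries, 10.2.

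**Figure D3:**
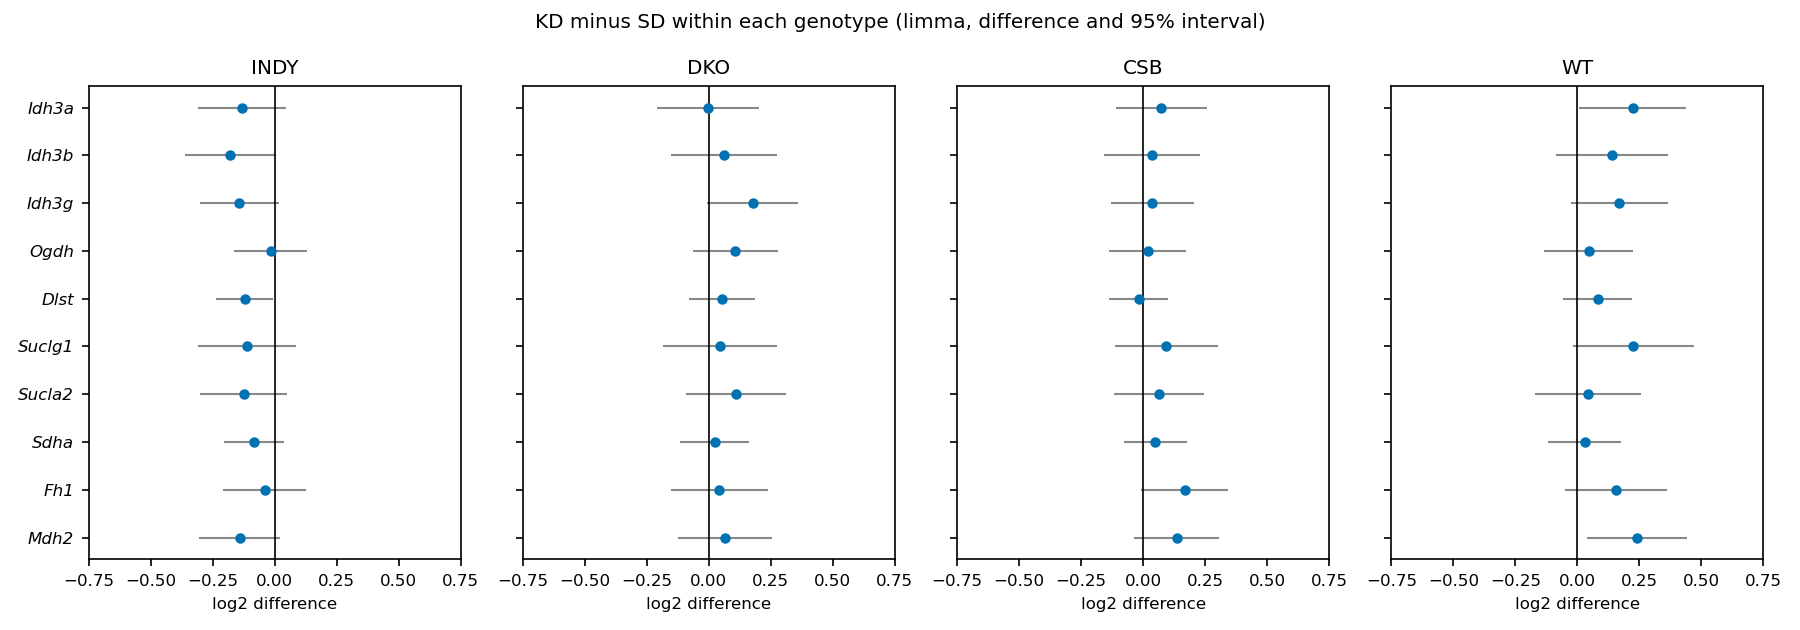
Log2 difference of KD minus SD (x axis) for each of the 10 genes (y axis) in INDY, DKO, CSB and WT, with points for the limma estimate and bars for its 95% interval. All points lie left of 0 in INDY and right of 0 in WT, and most intervals include 0.

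Slc13a5 genotype was compared within each diet, on the normal CSB background (INDY against WT) and on the mutant one (DKO against CSB). None of the 10 genes was called in any of these 4 comparisons or in their average. Among all genes tested, 0.00936% were called in INDY against WT on KD, 0.00468% in INDY against WT on SD, 0.0281% in DKO against CSB on KD and 0.00468% in DKO against CSB on SD. The average over diets and CSB backgrounds called 0.014% of all genes, 3 in number. For the 10 genes, the 95% intervals of the averaged log2 difference lay within -0.10 to 0.18, with 8 of the 10 above 0 (51.7% of all genes were) and a median of 0.04. Idh3a had the smallest p in the average, with a log2 difference of 0.08 ± 0.05 (SE, limma adjusted p = 0.513), followed by Mdh2 with 0.06 ± 0.05 (SE, limma adjusted p = 0.56). In the average 0 of the 10 had an unadjusted p under 0.05, against 9.38% of all genes.

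On SD, all 10 genes averaged higher in INDY than in WT, where 51.2% of all genes did, and 3 of the 10 had an unadjusted p under 0.05, against 7.97% of all genes in that direction. Mdh2 ranged between 2871 and 3392 normalised counts in the 6 INDY SD libraries, with a median of 2926, against 2630.5, 2714, 2450.2 and 2332 in WT SD libraries. Every INDY SD library lay above every WT SD library. The log2 difference was 0.25 ± 0.09 (SE, limma adjusted p = 0.319). Suclg1, the alpha subunit shared by both forms of succinyl-CoA ligase, ranged between 1463.5 and 1554 with a median of 1518 in INDY SD, against 1264, 1449.9, 1303 and 1351 in WT SD. The groups of Suclg1 did not overlap either, and its log2 difference was 0.18 ± 0.11 (SE). Mdh2 and Suclg1 were the only genes of the 10 whose groups did not overlap in this comparison, where 2.74% of all genes were higher in every INDY SD library than in any WT SD library and 2.66% were lower. Idh3a ranged between 3183 and 3815 with a median of 3769 in INDY SD, against 3315, 3201, 2717 and 2954 in WT SD. Its groups overlapped through INDY SD 11, and the log2 difference was 0.26 ± 0.10 (SE, limma adjusted p = 0.319). Ogdh was the third gene with an unadjusted p under 0.05, at a log2 difference of 0.17 ± 0.08 (SE). These values rest on the same 4 WT SD libraries as the WT diet comparison. INDY SD libraries had mean marker levels of 13.47 for oligodendrocytes, 9.25 for microglia, 6.33 for the forebrain and 4.85 for the liver, against 13.14, 8.89, 5.48 and 2.14 in WT SD, where each was the lowest of the 8 groups. Other lists went the other way, with WT SD the highest of the 8 groups. These were choroid plexus (8.47), granule cell (12.18), Purkinje cell (13.16) and endothelial (9.42) markers, against 7.57, 11.67, 12.65 and 9.34 in INDY SD. Of 14 liver markers, 6 had an unadjusted p under 0.05 and were higher in INDY SD, with a median log2 difference of 2.49 over the 14. Only 2 of the 14 reached at least 10 in every WT SD library, and liver levels ran between 2.37 and 8.99 in INDY SD libraries. The part of these markers in the difference was not tested.

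On KD, 2 of the 10 genes averaged higher in INDY than in WT, where 49.2% of all genes did, and the median log2 difference was -0.11, against -0.058 without WT KD 25 and -0.047 without INDY KD 20. Idh3g ranged between 2081 and 2555 normalised counts in the 6 INDY KD libraries, with a median of 2479, against 2541, 2709, 2638 and 3123 in WT KD libraries. INDY KD 15 and INDY KD 46 lay just above the lowest WT KD library, and the other 4 lay below all WT KD libraries. The log2 difference of Idh3g was -0.19 ± 0.09 (SE, limma adjusted p = 0.706), and that of Dlst -0.14 ± 0.06 (SE, limma adjusted p = 0.674). These 2 genes had an unadjusted p under 0.05, against 2.3% of all genes tested in that direction. Ogdh was the gene with the highest difference on KD, 0.11 on the log2 scale. No gene of the 10 had groups that did not overlap on KD, where 0.618% of all genes were higher without overlap and 0.253% lower.

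On the mutant CSB background the same contrast had smaller medians, which moved with the libraries used. Of the 10 genes, 7 averaged higher in DKO than in CSB on KD, with a median log2 difference of 0.03, and 6 on SD, with a median of 0.05. Leaving out 1 library turned both medians, to -0.015 on KD without CSB KD 18 and to -0.020 on SD without DKO SD 36. Other removals raised them, to 0.065 on KD without CSB KD 13 and to 0.10 on SD without DKO SD 1. Without the libraries of high forebrain level the median was 0.01 on KD and 0.14 on SD. Of all genes, 50.9% averaged higher in DKO on KD and 46.3% on SD. In both, 0 of the 10 had an unadjusted p under 0.05, against 1.73% of all genes on KD and 13.6% on SD. None of the 10 had groups that did not overlap, which 0.173% (higher) and 0.215% (lower) of all genes had on KD and 1.98% (higher) and 0.894% (lower) on SD. On KD the smallest p were those of Idh3g (0.10 ± 0.09, SE) and Idh3b (0.11 ± 0.10, SE), each at a limma adjusted p of 1. On SD they were those of Idh3a (0.13 ± 0.10, SE, limma adjusted p = 0.555) and Dlst (-0.08 ± 0.06, SE, limma adjusted p = 0.584).

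The difference in diet response was then tested itself. For INDY minus WT, KD minus SD was lower by a median of 0.26 log2 units over the 10 genes, all 10 were below 0 while 50.9% of all genes were above it, and 6 had an unadjusted p under 0.05, against 7.68% of all genes tested in that direction. None was called, and 0.014% of all genes (3 in number) were. Marker levels differed in the same contrast: 7 of 11 choroid plexus and 3 of 5 endothelial markers were higher at an unadjusted p under 0.05, with medians of 2.28 and 0.38, and 4 of 8 microglia markers were lower, with a median of -0.53. The 16 forebrain markers had a median of -1.70, with 1 lower at that threshold. None of these markers was called, and their part in the difference of the 10 genes was not tested. Mdh2 had a difference in response of -0.38 ± 0.13 (SE, unadjusted p = 0.00501, limma adjusted p = 0.232), Idh3a of -0.35 ± 0.14 (limma adjusted p = 0.267), and Ogdh of -0.06 ± 0.12. Without WT KD 25 the Mdh2 value was -0.30, with a limma adjusted p of 0.443, and the Idh3a value -0.26, with a limma adjusted p of 0.515. Over all alternative settings Mdh2 ran between -0.4367 and -0.2199 and Idh3a between -0.3962 and -0.2422. The library with the lowest Mdh2 value in the series, INDY KD 20 at 2177, belongs to this contrast. For DKO minus CSB, 5 of the 10 differences in response were above 0, where 53.2% of all genes were, and their median was 0.0006, on no stable side of 0 when 1 library was left out (-0.078 without DKO SD 1, 0.067 without DKO SD 36). There 0 of the 10 genes and 0% of all genes were called, and 0 of the 10 had an unadjusted p under 0.05, against 5.99% of all genes. The smallest p were those of Idh3g (0.14 ± 0.12, SE, limma adjusted p = 0.822) and Fh1 (-0.13 ± 0.13, SE, limma adjusted p = 0.843). Over both CSB backgrounds the difference in response had a median of -0.12, with 2 of the 10 genes at an unadjusted p under 0.05, Idh3a (-0.22 ± 0.10, SE) and Mdh2 (-0.23 ± 0.09, SE, limma adjusted p = 0.221), against 9.42% of all genes tested in that direction, and 0 of the 10 and 0% of all genes were called. Without WT KD 25 the values over both CSB backgrounds were -0.17 for Idh3a and -0.18 for Mdh2. Over all alternative settings they ran between -0.2595 and -0.109 for Idh3a and between -0.3046 and -0.0889 for Mdh2. The contrast of INDY minus WT shares its libraries with the comparisons above, so it adds no separate measurement of them.

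**Figure D4:**
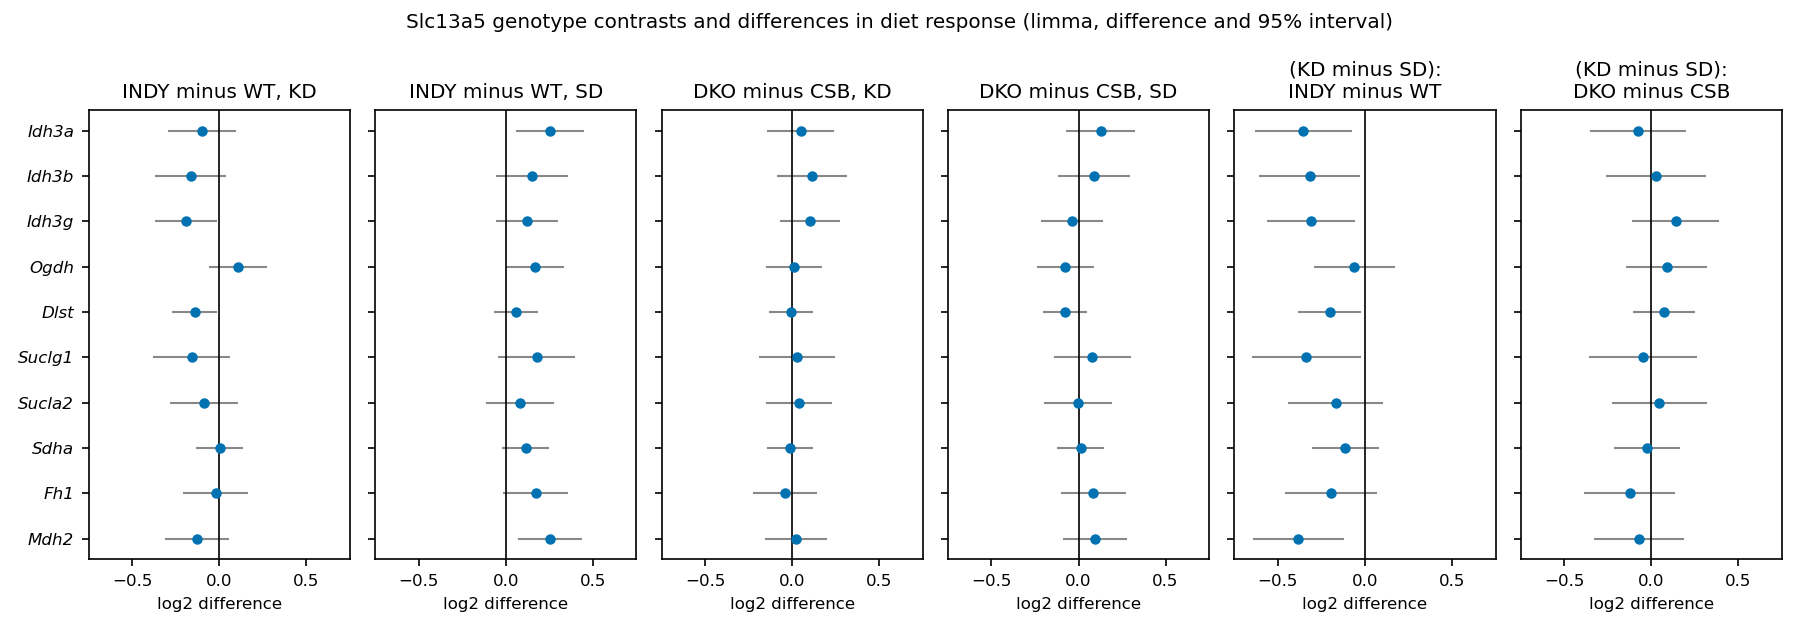
Log2 differences (x axis) of the 10 genes (y axis) for INDY minus WT and DKO minus CSB on each diet and, in the last panels, for the difference between their diet responses, as limma estimates with 95% intervals. INDY minus WT lies right of 0 for all genes on SD and its diet response left of 0 for all genes, while DKO minus CSB scatters around 0.

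CSB genotype was averaged over diets and Slc13a5 genotypes as a setting for the same genes. All 10 averaged higher in CSB and DKO than in WT and INDY, where 52.1% of all genes did, with a median log2 difference of 0.07, and 3 had an unadjusted p under 0.05 (Ogdh, Suclg1 and Mdh2), against 7.05% of all genes tested in that direction. None was called, whereas 0.796% of all genes (170) were. Without DKO KD 23 the number over all genes was 959, without INDY KD 22 it was 1379 and without INDY SD 33 it was 276. Mdh2 came closest, with a log2 difference of 0.14 ± 0.05 (SE, limma adjusted p = 0.102), against 0.14 without DKO KD 23 (adjusted p = 0.0735), 0.16 without WT KD 25 (adjusted p = 0.0682) and 0.15 without INDY KD 22, where it was called (adjusted p = 0.0374). In the same comparison 3 of 8 microglia markers and 1 of 7 astrocyte markers were called higher, and 6 of the 8 microglia markers had an unadjusted p under 0.05, with a median log2 difference of 0.38. Their part in the difference of the 10 genes was not tested. Group means of Mdh2 were 3231 ± 132 in DKO KD, 3099 ± 295 in DKO SD, 3201 ± 417 in CSB KD and 2901 ± 202 in CSB SD, against 2750.2 ± 327 in INDY KD, 3020.4 ± 207 in INDY SD, 3007 ± 403 in WT KD and 2532 ± 173 in WT SD (normalised counts, SD over 4 to 6 libraries). Ogdh differed by 0.10 ± 0.04 (SE, limma adjusted p = 0.175) and Dlst by 0.01 ± 0.03.

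Isoform pairs were compared as ratios within a library, which the scaling of a library leaves unchanged. Succinyl-CoA ligase pairs Suclg1 with Sucla2 in its ATP-forming form or with Suclg2 in its GTP-forming form. Per kilobase, Sucla2 averaged 1934 and Suclg2 168.2 normalised counts, and the ratio of their counts, uncorrected for length, ran between 5.82 and 10.4 with a median of 7.41 over the 40 libraries. Ogdh averaged 1406 and its brain-expressed paralogue Ogdhl 875.9 normalised counts per kilobase, and the uncorrected ratio ran between 1.38 and 2.38 with a median of 1.94. Of 16 exact permutation tests (two-sided, 8 comparisons of each ratio), 0 passed at a Benjamini-Hochberg adjusted p under 0.05, and the smallest adjusted p was 0.416. The log2 ratio of Sucla2 to Suclg2 averaged 3.13 ± 0.25 in CSB KD and 2.84 ± 0.17 in CSB SD (SD, n = 5 and 6, exact p = 0.05195 unadjusted). The log2 ratio of Ogdh to Ogdhl averaged 0.98 ± 0.15 in INDY KD and 0.82 ± 0.09 in INDY SD (SD, n = 6 each, exact p = 0.0476 unadjusted). In both the groups overlapped. Ogdhl lies 0.165 Mb from Ercc6 on chromosome 14 (GRCm38), and the part of linkage in its ratios in CSB and DKO was not tested.

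**Figure D5:**
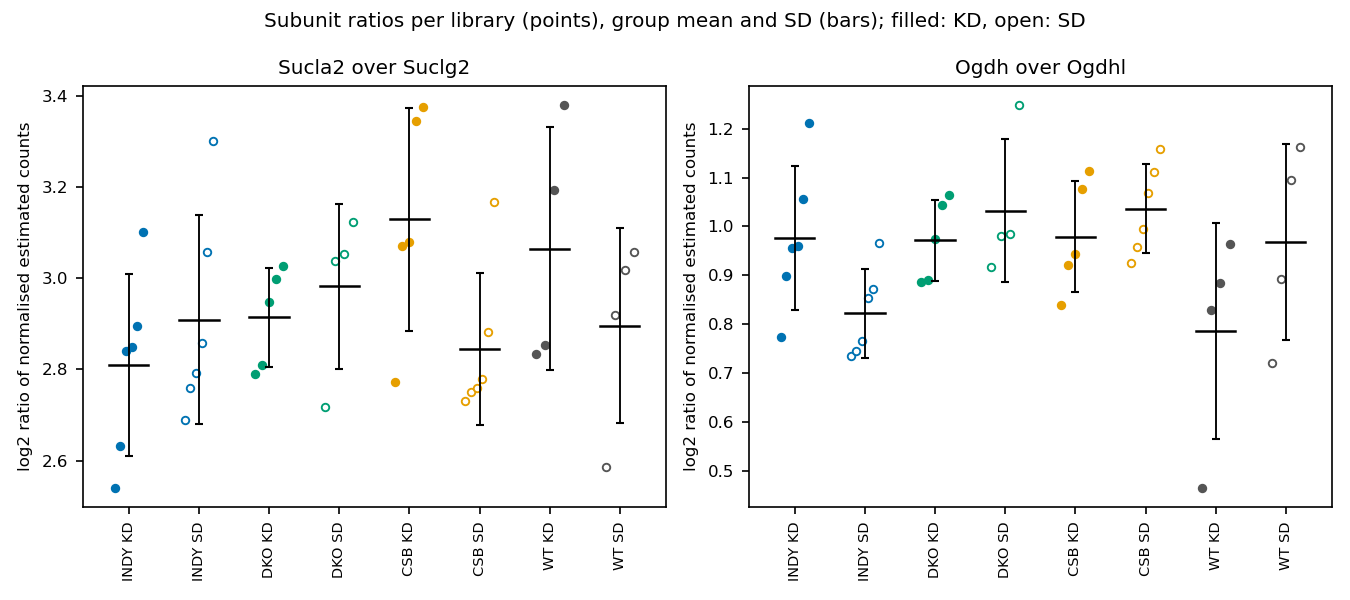
Log2 ratio of normalised counts (y axis) of Sucla2 over Suclg2 and of Ogdh over Ogdhl in the 8 groups (x axis), with 1 point per library, filled for KD and open for SD, and bars for the group mean and SD. All groups overlap their neighbours, and the ratios stay within 5.82 to 10.4 and 1.38 to 2.38 on the linear scale.

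Other genes of the pathway were taken from 6 lists of 50 genes, and 0 of them were called in any of the 14 comparisons (limma, adjusted p under 0.05). The enzymes that bring pyruvate and citrate to isocitrate (7 genes) had a median log2 difference in response of -0.22 for INDY minus WT, with 2 of 7 below an unadjusted p of 0.05 and lower, as 7.68% of all genes were. Citrate synthase, Cs, was among them, with a difference of -0.34 ± 0.11 (SE, limma adjusted p = 0.23). Among 13 genes that refill or drain the cycle, the aspartate aminotransferases Got1 and Got2 had the smallest p in that contrast, with differences of -0.46 and -0.40, and these were the only 2 of the 13 below an unadjusted p of 0.05. The median of that list was 0.02. Among 8 carriers, with a median of -0.21, the oxoglutarate-malate carrier Slc25a11 had a difference in response of -0.43 ± 0.12 (SE, limma adjusted p = 0.194). Of partner subunits and paralogues (11 genes, 12 IDs), with a median of -0.21, Ogdhl differed by -0.40 and the succinate dehydrogenase anchor subunit Sdhd by -0.29. The 4 assembly factors of succinate dehydrogenase and the 7 kinases and phosphatases of pyruvate dehydrogenase had 0 genes with an unadjusted p under 0.05 in that contrast. The median difference was -0.16 for the assembly factors and -0.03 for the kinases and phosphatases.

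Fh1 lies on chromosome 1 between Ifi202b and Catspere1, at gaps of 1.62 and 2.18 Mb (GRCm38 annotation). Catspere1 was at 251.8 to 354.9 normalised counts in 4 of the 5 DKO KD libraries, at 7.5 in DKO KD 3, and at 20.4 or less in every library of the other groups. Fh1 was at 1854, 1698, 1548, 1734 and 1668 in DKO KD 2, 3, 23, 24 and 47, so that DKO KD 3 fell within the range of the other 4. Processed pseudogenes with similarity to Fh1 (Gm7190, 83.6% identity over the aligned bases) and to Mdh2 (Gm12369, 77.7%) were listed at 0 in all libraries (Gm7190) and at no more than 20.1 normalised counts (Gm12369). How reads shared with them were assigned is not given in the sources used here.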

How the data were processed

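Total RNA of 40 cerebellar libraries was measured by sequencing. Per the labels, trizol-chloroform RNA was freed of rRNA before DNBseq library preparation. The deposited values are a signal for each gene in each library, an estimated read count that the authors normalised. The submitters' processing notes name Bowtie2, Salmon, DESeq2 and mm9, with no version. Raw counts could not be recovered from the values, which are not whole, so depth and its counting error are unknown, no count model was run and the number of libraries limits the precision. All columns were used. Symbols and positions came from GENCODE M21 on GRCm38, matched for 54097 of 54331 IDs with the version stripped. Its build differs from mm9, so positions belong to the annotation.

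On log2(value + 1), limma 3.58.1 (R 4.3.3) was run with robust variances and an intensity trend. A single model held all 8 groups without covariates, since the labels name no batch or pairing. The 21367 genes that reached 10 in 4 or more libraries were tested in 14 comparisons, with two-sided p-values Benjamini-Hochberg adjusted over all of them within a comparison, and called at an adjusted p under 0.05. The planned count model was replaced by limma because the table holds no counts. Folds on the log2(value + 1) scale understate changes of low genes. Ratios of isoforms were compared with exact permutation tests in Python 3.11.15. Levels of marker lists are means of log2(value + 1). The NRF1-type motif was shortened by its last base after a first search had been seen, in which the longer form matched Sdha and Sucla2 but not Ogdh. Pseudogene similarity was found with minimap2 2.31-r1302. The limma step was tested on simulated data.

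The 10 genes, the pathway and marker lists, the comparisons and the tests were chosen with earlier results of these data known. Test statistics are given for each called gene, and otherwise for the 2 genes of the 10 with the smallest p in a comparison. Of the pathway lists, the genes with the smallest p are named, except 1 that is not reported here. The genes most like the 10 are those with the highest correlation to their mean profile. The other Ogdh, Suclg1, Sdha and Dlst values were chosen after they were seen. The alternatives were other pseudocounts, no filter, other scalings, array weights, fits of only the groups compared, marker levels as covariates and the removal of libraries.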

Additional observations from a re-analysis of the deposited data

Results flagged for a closer look

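In 6 of 96 sets of values, each a gene or ratio in 1 group of 4 to 6 libraries, 1 library stood apart from the rest by Dixon's criterion at the 95% level, which chance gives in about 1 in 20 groups. On the log2(value + 1) scale, Idh3a was at 11.35 in INDY KD 20, below 11.67 to 11.85 in the other INDY KD libraries. Ogdh was at 12.66 in INDY KD 15, above 12.44 to 12.49 in the others of that group. Idh3g was at 11.26 in INDY SD 33, below 11.37 to 11.43. Sdha was at 13.02 in DKO SD 1, below 13.30 to 13.33. Dlst was at 11.50 in WT KD 28, above 11.40 to 11.41. The log2 ratio of Sucla2 to Suclg2 was 3.17 in CSB SD 26, above 2.73 to 2.88.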

How the results depend on the processing

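No paired analysis was possible because every library number occurs once. Of 416 counts of called genes among the 10 under other settings, 414 stayed at 0. The exceptions were both in CSB and DKO against WT and INDY, where the count was 1 (Mdh2) with array weights, at a log2 difference of 0.14 and a limma adjusted p of 0.0462, and 0 to 1 when 1 library was left out. The 1 came from leaving out INDY KD 22 (0.15, limma adjusted p = 0.0374), and the adjusted p of Mdh2 ran between 0.0374 and 0.201 over the 49 alternatives. No named gene of the 10 changed sign. Median differences of the 10 moved by more than 0.10 log2 units, the SD between libraries, in 6 of 416 cases. Several medians were smaller than that cutoff, so a median could vanish or change sign without being counted. For DKO against CSB it ran between -0.0147 and 0.0701 on KD (0.0263 as reported). On SD it ran between -0.0295 and 0.1446 (0.0453 as reported). Without the libraries of high forebrain level, which leaves 1 WT KD library assumed to vary like the other groups, the median was -0.051 for KD against SD in DKO, -0.23 for INDY against WT on KD, -0.38 for the diet response of INDY minus WT, -0.13 for that of DKO minus CSB and -0.25 for both together. With quantile normalization it was 0.11 for the diet response of DKO minus CSB. Other alternatives brought medians nearer to 0. The nearest were -0.047 for INDY against WT on KD, -0.17 for the diet response of INDY minus WT and -0.064 for both together. Leaving out 1 library turned the sign of log2 ratios near 0. The ratio of Sucla2 to Suclg2 in INDY against WT on SD ran between -0.090 and 0.068. The ratio of Ogdh to Ogdhl ran between -0.099 and 0.011 for KD against SD in DKO, between -0.076 and 0.0345 for DKO against CSB on SD and between -0.042 and 0.0265 for DKO against CSB on KD. The cause was not tested.

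Counts of called genes over the whole table moved by more than 1.5 times in 97 of 416 cases. For CSB and DKO against WT and INDY, 170 genes were called, 473 with array weights, 111 with the oligodendrocyte level as a covariate (an alternative chosen after seeing the data) and 767 without the libraries of high forebrain level. Without INDY KD 22 it was 1379, without DKO KD 23 it was 959 and without INDY SD 33 it was 276. Counts ran between 0 and 24 under all alternatives in the other comparisons, except up to 49 for KD against SD in WT (0 as reported, 45 with array weights, 49 without the libraries of high forebrain level) and up to 85 for INDY against WT on SD (1 as reported, 85 with array weights). Depth is unknown, so what it limits could not be computed.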
